A study of Mus musculus with 19 samples.

Results

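The nuclear oxidative phosphorylation genes measured in mouse locus coeruleus are the subject here, 86 of the 14443 gene symbols with deposited counts, or 0.595%. They were chosen by symbol alone, as those of complex I (Ndufa, Ndufb, Ndufc, Ndufs, Ndufv and the assembly factors Ndufaf), complex III (Uqcr), complex IV (Cox4 to Cox8) and ATP synthase, also called complex V (Atp5), without pseudogenes. The pattern reads the symbols and no expression value, although the set was proposed with earlier results of these data known. By role they are 7 core and 30 accessory subunits of complex I, 8 complex I assembly factors, 8 members of complex III, 16 of complex IV with Ndufa4 and Ndufa4l2 counted there, and 17 of complex V. The symbol pattern thus also takes in factors that build complex I without being subunits of it.

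Polyadenylated RNA of dissected locus coeruleus was sequenced without strand information, in 4 groups of mice. CnB1KO_SD6 (n = 5) and CnB1KO_S6 (n = 5) came from the knockout mice that the labels call ABC-CnB1KO, sleep-deprived for 6 h or left to sleep. WT_SD6 (n = 5) and WT_S6 (n = 4) came from ABC-Ctrl mice under those same conditions. All mice, the controls included, were taken 4 weeks after injection of an AAV carrying Cre under the synapsin promoter, which is active in neurons, while the tissue also holds glia and vessels. The sources used here do not say what ABC stands for, how old the mice were or which alleles the control line carries. CnB1 is the regulatory subunit of calcineurin, a calcium-activated phosphatase, and is encoded by Ppp3r1. The labels call the replicates biological, and they name no batch or day.

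Oxidative phosphorylation passes electrons from NADH through complex I, ubiquinone, complex III and cytochrome c to oxygen at complex IV, and ATP synthase uses the resulting proton gradient to make ATP. Complexes I, III, IV and V combine subunits encoded in the nucleus, described here, with subunits encoded in mitochondrial DNA. Neurons rely on this pathway for most of their ATP, and noradrenergic neurons of the locus coeruleus fire throughout waking.

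Library totals ran from 3887298 to 7903253 counts, with CnB1KO_S6 library 13 the shallowest. They averaged 6110446 ± 738579 in CnB1KO_SD6 and 6099213 ± 1288682 in CnB1KO_S6 (SD, n = 5 each), against 6777010 ± 835240 in WT_SD6 (SD, n = 5) and 6555528 ± 316361 in WT_S6 (SD, n = 4). Ppp3r1, the targeted gene, was lower in CnB1KO averaged over sleep states (log2 fold change -0.26, SE 0.04, adjusted p = 0.00758 by edgeR). The noradrenergic markers Th, Dbh and Slc6a2 were at 26.2 FPKM or more in every library, so the markers that define the labelled tissue were present. FPKM are the authors' fragment counts per kilobase of transcript, scaled to the mapped total. CPM are counts scaled to a common library total with TMM factors. A gene is said to pass where edgeR's quasi-likelihood test gave it a p under 0.05 after Benjamini-Hochberg adjustment over the 14443 genes.

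Promoters of 2 of the 3 members that passed for sleep deprivation are shown first, each with a short motif. The motif shown for Ndufb2 was added to the search after that sequence had been read. The promoter of Atp5g1, the other member that passed, held none of the motifs searched for. The sequences shown are the 250 bases before the RefSeq start on GRCm38.p6, 5′ to 3′ on the gene's strand, with the motif in capitals. The promoter of Ndufb2, an accessory subunit of complex I, is chr6:39592315-39592564 on the plus strand, and the capitals mark a cyclic AMP response element core, TGACGTCA, from 14 to 7 bases before the start. The promoter of Ndufaf4, a complex I assembly factor, is chr4:24897833-24898082 on the plus strand, and the capitals mark overlapping matches of an NRF1 core on both strands, together spanning 113 to 104 bases before the start.
Ndufb2: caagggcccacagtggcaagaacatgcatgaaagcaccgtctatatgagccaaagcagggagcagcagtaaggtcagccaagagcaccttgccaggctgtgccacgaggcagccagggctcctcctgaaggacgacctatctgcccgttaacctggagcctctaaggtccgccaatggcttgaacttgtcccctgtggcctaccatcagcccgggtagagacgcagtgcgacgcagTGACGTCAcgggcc
Ndufaf4: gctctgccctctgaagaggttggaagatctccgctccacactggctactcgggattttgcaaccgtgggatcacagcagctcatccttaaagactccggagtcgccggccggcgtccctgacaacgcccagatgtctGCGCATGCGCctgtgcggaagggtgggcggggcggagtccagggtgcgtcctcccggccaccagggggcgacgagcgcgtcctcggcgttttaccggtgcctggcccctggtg

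Of the 86 members, 72 had a promoter in the RefSeq table. The NRF1 core GCATGCGC, which reads GCGCATGC on the other strand and whose factor is known to bind respiratory chain gene promoters, was in 8 of these 72, or 11.1%. That compares with 4.83% of 11044 promoters of genes in the count table and 2.56% of all 27025 promoters. The ETS family core CCGGAAGT was in 3 member promoters (4.17%), against 6.23% of promoters of genes in the count table and 3.23% of all promoters. For the YY1 core AAGATGGC the figures were 1 member promoter (1.39%), 2.29% of promoters of genes in the count table and 1.83% of all. The cyclic AMP response element core was added to the search after the Ndufb2 sequence had been read. It was in 4 member promoters (5.56%), that of Ndufb2 included, against 3.04% of promoters of genes in the count table and 1.77% of all. These shares describe letters within 250 bases and were not tested.

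Nuclear oxidative phosphorylation genes were among the more abundant transcripts of the tissue per length. The median level over 85 members with FPKM was 49.2 FPKM, against 14.2 FPKM over all genes of the count table, and 76 of the 85 exceeded 20 FPKM. Complex IV had the highest class median, 63.1 FPKM, followed by complex V with 60.8, the complex I core with 57 and complex III with 55.9 FPKM. Accessory subunits of complex I had a median of 45.4 FPKM and its assembly factors 19.4 FPKM. The level across the members thus spanned 28.9-fold, with Atp5b highest and Cox4i2 lowest.

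**Figure D1:**
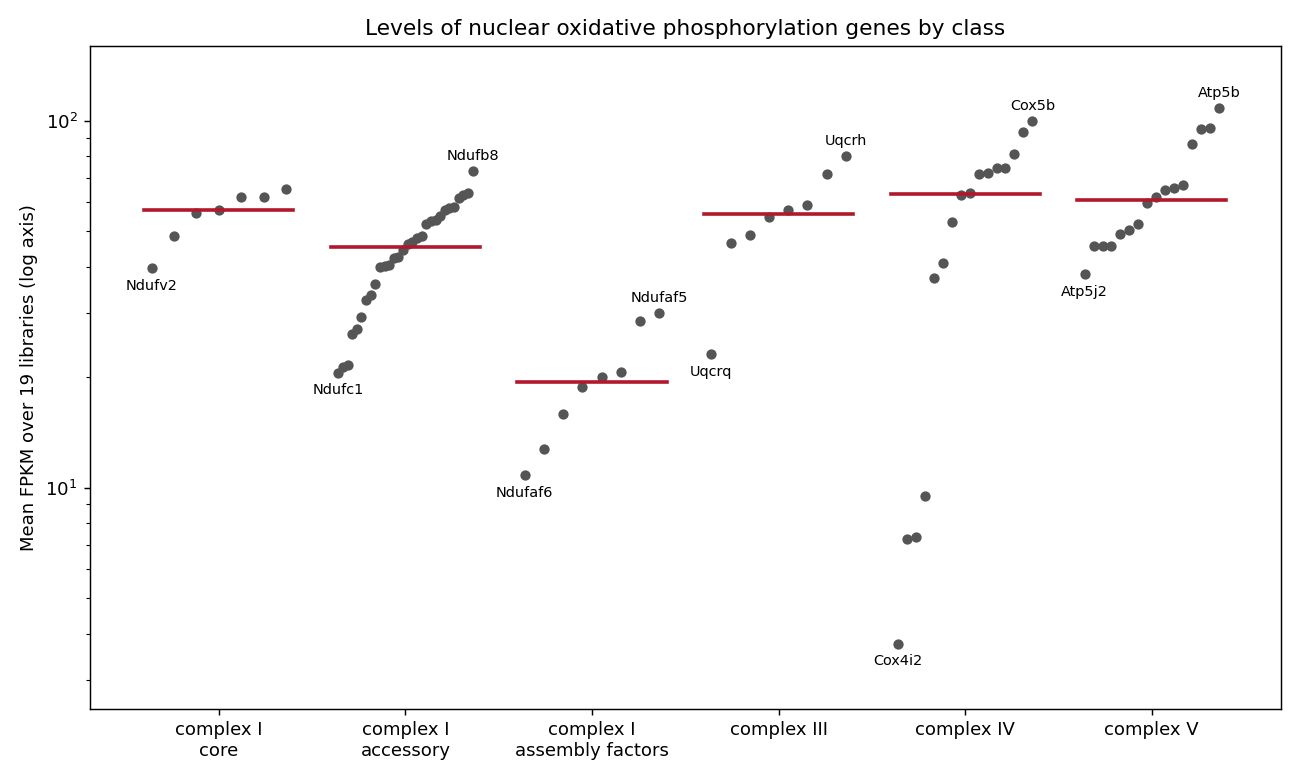
Mean FPKM over the 19 libraries (log axis) of each of the 85 members with FPKM, by class, with 1 point per gene and a red line at the class median. The assembly factors have a lower median, 19.4 FPKM, than the subunits of complex I, although their ranges overlap. In complex IV 4 members lie apart from its other 12.

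Atp5b, the catalytic beta subunit of ATP synthase, averaged 112 ± 10.2 FPKM in CnB1KO_SD6, 113 ± 17.3 in CnB1KO_S6, 103 ± 10.4 in WT_SD6 (SD, n = 5 each) and 106 ± 2.98 in WT_S6 (SD, n = 4). Its partner Atp5a1, the alpha subunit, averaged 95.8 FPKM over the 19 libraries. These averages differed by less than the spread between libraries of CnB1KO_S6, where library 13 was highest with 143 FPKM of Atp5b and 145 FPKM of Atp5a1. Atp5j2, the f subunit of the membrane part, was lowest in complex V with 38.2 FPKM.

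Among complex I core subunits, which carry the electron path, Ndufv1 averaged 61.8 FPKM and Ndufv2 was lowest with 39.7 FPKM. Ndufb8 with 72.9 FPKM and Ndufs5 with 63.7 FPKM led the accessory subunits in FPKM and Ndufc1 was lowest with 20.6 FPKM. In counts Ndufb8 was low, with a mean of 8.85 CPM. It had 17.9 counts per kilobase of exon, the lowest of 82 members, against 175 for Ndufs5. The deposited measures thus disagree on the level of Ndufb8. Its exons overlap those of another gene on the same strand, and the part of this overlap was not tested. In complex III, Uqcrh, the hinge protein, led with 80.3 FPKM, Uqcrc1, a core protein, followed with 71.6 FPKM, and Uqcrq was lowest with 23.1 FPKM. Among assembly factors Ndufaf5 had 29.9, Ndufaf2 28.4 and Ndufaf6 10.8 FPKM. In FPKM each class therefore covered at most 3.54-fold between its lowest and highest member, except complex IV, which covered 26.5-fold.

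Complex IV has alternative isoforms of several subunits, and 1 isoform dominated each pair. Cox4i1, the common isoform of subunit 4, averaged 93.1 FPKM and Cox4i2, the isoform known from lung and from low oxygen, 3.76 FPKM. Cox6b1 averaged 63.6 FPKM and Cox6b2, known from testis, 7.35 FPKM. Cox7a2 averaged 52.8 FPKM, Cox7a2l, which helps join complexes III and IV, 74.2 FPKM, and Cox7a1, the heart and muscle isoform, 7.27 FPKM. Ndufa4 averaged 62.7 FPKM and Ndufa4l2, a gene induced by low oxygen, 9.47 FPKM.

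**Figure D2:**
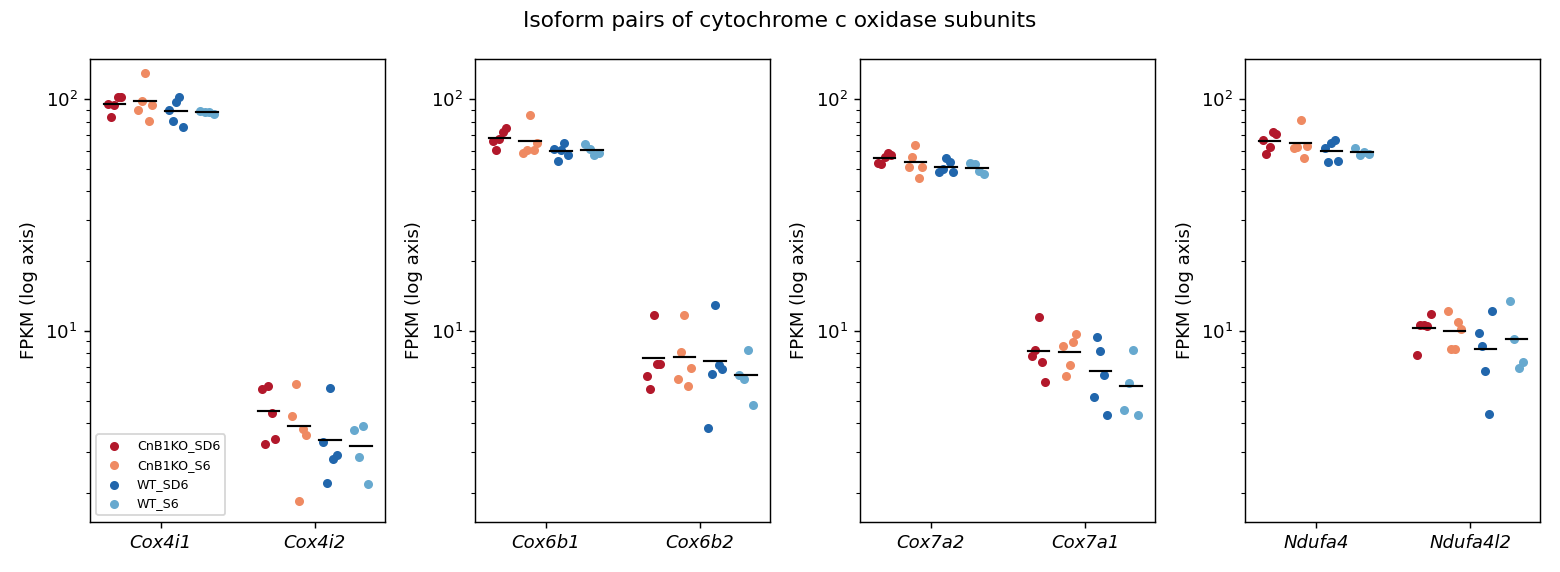
FPKM (log axis) of isoform pairs of complex IV in each library, with groups from left to right CnB1KO_SD6, CnB1KO_S6, WT_SD6 and WT_S6 for each gene and a black line at the group mean. In every group the first gene of a pair lies above the second, for example Cox4i1 at an average of 93.1 FPKM and Cox4i2 at 3.76 FPKM.

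The muscle isoforms Cox6a2 and Cox8b have no deposited counts and averaged 0.735 and 1.84 FPKM over the libraries, against 74.2 FPKM for Cox6a1 and 81.1 FPKM for Cox8a. Cox6a2 was listed at 1.67, 1.86, 3.29, 2.16 and 1.31 FPKM in WT_SD6, against 0, 0.522, 0.534 and 0 FPKM in WT_S6. In CnB1KO_SD6 it was listed at 1.002, 0, 0, 0.415 and 0 FPKM, against 0, 0, 0, 0.899 and 0.302 FPKM in CnB1KO_S6. The 5 WT_SD6 libraries thus lay above the other 14, and the share of all genes with such a separation was not counted. Cox8b reached 8.24 and 5.50 FPKM in 2 libraries of CnB1KO_SD6 and at most 2.81 FPKM in the other 17. No test result for these differences is given here, and both genes are near the low end of the FPKM scale. Cox5b, the most abundant member of complex IV with 99.8 FPKM, has a pseudogene, Cox5b-ps, listed at 47.7 FPKM, and reads of such near-identical copies may be split between them. For subunit c of ATP synthase, 3 genes encode the same mature protein with different import sequences. Atp5g3 averaged 86.3 FPKM, Atp5g2 49.2 and Atp5g1 45.5 FPKM.

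Sleep deprivation averaged over genotypes addressed which members follow prolonged waking. Ndufb2, Atp5g1 and Ndufaf4 were higher in deprived mice and passed, while 0 members were lower. That is 3 of 86 members, against 678 of 14443 genes, a background of 4.69%, so the share of members that passed was not above the background. The median log2 fold change of the members was 0.02, against -0.003 over all genes, and 56 of 86 were positive, against 48.4% of all genes. Leaving out 1 library gave medians of -0.0028 (without CnB1KO_S6 library 14) to 0.0539 (without CnB1KO_S6 library 13), so the median has no stable sign. Counted by class, 1 of 30 accessory subunits, 1 of 8 assembly factors and 1 of 17 members of complex V passed, and 0 of the complex I core, complex III and complex IV.

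Ndufb2, an accessory subunit in the membrane arm of complex I, lies at chr6:39592574-39603382 on the plus strand. Its level was 59.2, 64.2, 62.8, 65.4 and 61.9 CPM in CnB1KO_SD6, against 49.6, 56.1, 46.7, 52.4 and 56.1 CPM in CnB1KO_S6. In WT_SD6 it was 61.0, 62.3, 63.2, 61.5 and 66.5 CPM, against 48.2, 51.2, 47.8 and 47.4 CPM in WT_S6. In CPM all 10 deprived libraries lay above all 9 slept libraries. The log2 fold change of Ndufb2 was 0.32 (SE 0.04, adjusted p = 3.8e-05 by edgeR) averaged over genotypes. In deposited FPKM 5 of the 10 deprived libraries lay above all slept ones, with 21.6 to 25.9 FPKM against 16.1 to 22.6 FPKM. The share of all genes with such a separation, here or for the genes below, was not counted. Ndufb2 and the genes below were picked because they passed on these same counts, so a separation in CPM adds no support.

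Ndufb2 was also the only member to pass within a genotype. In CnB1KO it rose by a log2 fold change of 0.26 (SE 0.05, adjusted p = 0.0147) and in WT by 0.37 (SE 0.05, adjusted p = 0.00151), both by edgeR. The difference between these did not pass (log2 -0.11, SE 0.07, adjusted p = 1.0). The call in CnB1KO did not pass without CnB1KO_S6 library 11, without CnB1KO_SD6 library 18, or with those groups fitted alone. Its exons overlap those of 3 other genes, among them Braf on the opposite strand, and unstranded counts cannot separate these reads. Braf itself had a log2 fold change of -0.03 (adjusted p = 0.751 by edgeR). Values of the other overlapping genes, Gm16272 and Gm42420, are not given here. The part of the overlap in the rise of Ndufb2 was not tested.

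Atp5g1, a subunit c gene of ATP synthase, lies at chr11:96068852-96075670 on the minus strand. It was at 74.1, 66.2, 74.0, 71.9 and 69.9 CPM in CnB1KO_SD6, against 58.1, 58.3, 71.2, 53.7 and 63.0 CPM in CnB1KO_S6. It was at 69.0, 69.1, 78.9, 74.4 and 67.6 CPM in WT_SD6, against 55.0, 60.6, 62.5 and 60.3 CPM in WT_S6. In WT all deprived libraries lay above all slept ones, while in CnB1KO the slept library 13 lay among the deprived ones. The averaged log2 fold change was 0.25 (SE 0.05, adjusted p = 0.0036 by edgeR).

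The other genes of subunit c had log2 fold changes of -0.04 (SE 0.05, adjusted p = 0.863) for Atp5g2 and -0.02 (SE 0.06, adjusted p = 0.93) for Atp5g3. Within genotypes Atp5g1 did not pass (adjusted p = 0.129 in CnB1KO and 0.0671 in WT). Its deposited FPKM did not show the difference. They gave 50.4 ± 2.96 FPKM in CnB1KO_SD6 against 46.2 ± 3.4 in CnB1KO_S6 (SD, n = 5 each). In WT_SD6 they gave 42.2 ± 8.22 (SD, n = 5) against 42.4 ± 8.66 in WT_S6 (SD, n = 4), and the averaged log2 fold change of log2(FPKM + 1) was 0.06 (SE 0.08, adjusted p = 0.836 by limma).

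Ndufaf4, which acts early in the assembly of complex I, lies at chr4:24898083-24905001 on the plus strand. Its level was 54.8, 61.6, 72.1, 60.0 and 55.5 CPM in CnB1KO_SD6, against 50.6, 55.3, 48.3, 51.6 and 53.2 CPM in CnB1KO_S6. In WT_SD6 it was 56.3, 59.3, 60.5, 63.3 and 55.2 CPM, against 48.7, 50.5, 47.8 and 49.7 CPM in WT_S6. The groups did not overlap in WT, and in CnB1KO 1 deprived library lay within the range of the slept ones. The averaged log2 fold change was 0.25 (SE 0.05, adjusted p = 0.0039 by edgeR), and it did not pass within either genotype. In deposited FPKM 6 of the 10 deprived libraries lay above all 9 slept ones.

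**Figure D3:**
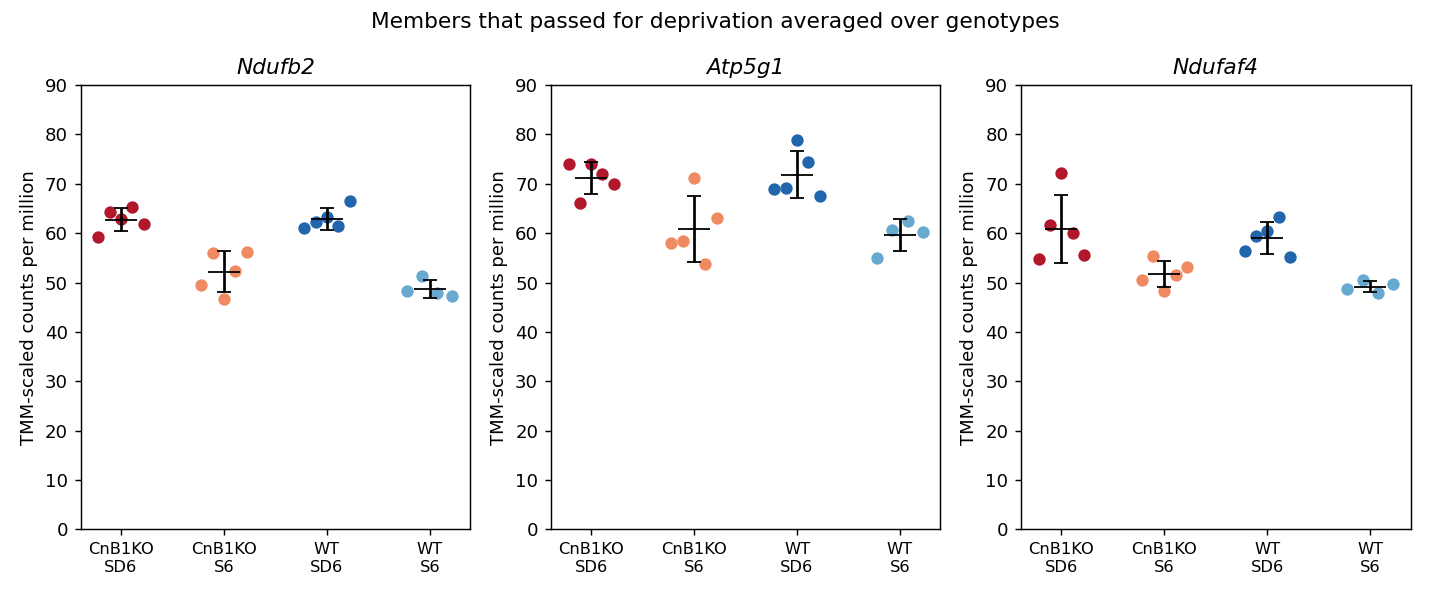
TMM-scaled CPM of Ndufb2, Atp5g1 and Ndufaf4 in each library by group, with the mean and SD (n = 5, and 4 in WT_S6). For Ndufb2 the deprived libraries span 59.2 to 66.5 CPM and the slept ones 46.7 to 56.1 CPM. In deposited FPKM, not drawn here, these ranges overlap.

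In deposited FPKM, tested by limma on log2(FPKM + 1), 0 of 85 members passed for deprivation averaged over genotypes, against a background of 2.47% of 17362 genes. At an unadjusted p under 0.05 there were 5 (5.88%), against 14.5% of all genes. Ndufb2 came closest, with 0.19 (SE 0.05, adjusted p = 0.0539), and Ndufaf4 had 0.19 (adjusted p = 0.111). With the log2 library total as a covariate of the count fit, the same 3 members passed, against a background of 5.87%. Ndufab1, the mitochondrial acyl carrier protein and an accessory subunit, was next (log2 0.15, SE 0.05, adjusted p = 0.064 by edgeR).

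Within genotypes the count was 1 of 86 for deprivation in CnB1KO, where the background was 0.692%, and 1 of 86 in WT, where it was 1.14%. The median log2 fold change of the members was 0.02 in both, and -0.01 in CnB1KO and 0.001 in WT over all genes. It ran from -0.0112 (without CnB1KO_S6 library 14) to 0.0795 (without CnB1KO_S6 library 13) in CnB1KO. In WT it ran from -0.0119 (without WT_SD6 library 8) to 0.0406 (without WT_SD6 library 10). For the difference of the deprivation response between genotypes 0 members passed by edgeR, by DESeq2 and by voom, and 0 had an unadjusted p under 0.05, against 1.99% of all genes. The background at an adjusted p under 0.05 was 0%.

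A few cell type markers passed for deprivation averaged over genotypes. Gjb6 of 9 astrocyte markers and Ly6c1 of 7 endothelial markers were higher, and Cx3cr1 of 7 microglia markers was lower. In the neuron, noradrenergic, mural, cerebellar granule, serotonergic, choroid and blood lists 0 passed. Among 11 oligodendrocyte markers 3 were lower (Mog, Opalin and Aspa) and 0 higher. Within CnB1KO 1 of these 11 passed (Opalin) and 4 had a positive log2 fold change, against 2 passing and 0 positive in WT. Their mean log2 CPM lay between 6.97 and 7.30 in CnB1KO_SD6, against 7.09 to 7.63 in CnB1KO_S6. It lay between 6.84 and 7.08 in WT_SD6, against 7.12 to 7.32 in WT_S6. None of the 11 was at 0 in any library. With this score as a covariate the members' median log2 fold change was 0.12, against 0.02 without it, and the same 3 members passed. In WT the score did not overlap between deprived and slept libraries, so this fit cannot separate the score from deprivation there. In bulk tissue, fewer cells of a type and less RNA per cell cannot be told apart.

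The comparison of CnB1KO with WT described whether the members differ between these tissues. Ppp3r1 RNA itself was only modestly lower in this bulk tissue, as given above. A lack of calls therefore does not show that calcineurin has no part in the level of these genes. Averaged over sleep states 0 of 86 passed by edgeR, by DESeq2 and by voom, against a background of 3.09%. At an unadjusted p under 0.05 there were 27 members (31.4%), all higher in CnB1KO, against 23.1% of all genes. The log2 fold change was positive for 85 of 86 members, with a median of 0.10, against a median of 0.01 and 52.5% positive over all genes. Without CnB1KO_S6 library 13 the median was 0.0578 and 79 were positive. The exception was Atp5l, the g subunit of ATP synthase, at -0.03 (SE 0.07). Complex IV had the highest class median, 0.14, and the assembly factors the lowest, 0.05.

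Ndufaf6 had the smallest adjusted p. It was at 11.6, 13.5, 14.6, 12.8 and 12.1 CPM in CnB1KO_SD6, against 12.9, 11.6, 10.5, 10.003 and 10.5 CPM in WT_SD6. It was at 12.1, 13.3, 14.5, 15.9 and 12.5 CPM in CnB1KO_S6, against 10.7, 11.1, 11.7 and 11.6 CPM in WT_S6. After sleep the groups did not overlap, and after deprivation they did. The averaged log2 fold change was 0.25 (SE 0.07, adjusted p = 0.0597 by edgeR), so it did not pass.

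Ndufb6, an accessory subunit, followed with 0.23 (SE 0.07, adjusted p = 0.0603) and Ndufc1, another, with 0.22 (SE 0.06, adjusted p = 0.0651). Ndufb6 averaged 20.9 ± 1.9 CPM in CnB1KO_SD6 and 17.6 ± 1.68 in WT_SD6 (SD, n = 5 each), and 20.2 ± 2.31 in CnB1KO_S6 (SD, n = 5) and 17.4 ± 0.995 in WT_S6 (SD, n = 4). Ndufc1 averaged 29.1 ± 4.23 CPM in CnB1KO_SD6 and 24.3 ± 0.974 in WT_SD6, and 28.8 ± 2.29 in CnB1KO_S6 and 25.5 ± 2.03 in WT_S6. For both genes the ranges of CnB1KO and WT libraries overlapped in each sleep state.

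The largest fold changes belonged to 2 of the low isoforms, Cox4i2 with 0.39 (SE 0.20, adjusted p = 0.247) and Cox7a1 with 0.33 (SE 0.16, adjusted p = 0.219). Cox4i2 averaged 4.49 ± 1.19 FPKM in CnB1KO_SD6 and 3.37 ± 1.34 in WT_SD6 (SD, n = 5 each), and 3.88 ± 1.45 in CnB1KO_S6 (SD, n = 5) and 3.18 ± 0.80 in WT_S6 (SD, n = 4). Both genes overlapped between genotypes and neither passed. Beside them, vessel markers were higher in CnB1KO. Of 7 endothelial markers 4 passed, with a median log2 fold change of 0.32, and of 7 mural markers with counts 2 passed, with a median of 0.23. The mean log2 CPM of the endothelial markers was 5.51 to 5.90 in CnB1KO_SD6 against 5.15 to 5.66 in WT_SD6. It was 5.56 to 5.94 in CnB1KO_S6 against 5.17 to 5.46 in WT_S6. The mean log2 CPM of the mural markers was 4.62 to 5.16 in CnB1KO_SD6 against 4.45 to 4.89 in WT_SD6. Those of mural markers after sleep were 4.56 to 4.93 in CnB1KO_S6 against 4.35 to 4.58 in WT_S6. None of the markers of either list was at 0 in any library, and their part in the result was not tested.

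After deprivation alone 0 members passed for CnB1KO against WT by edgeR, by DESeq2 and by voom, with a background of 0.132%, and 13 had an unadjusted p under 0.05, against 15.2% of all genes. Ndufa1 (log2 0.23, SE 0.08, adjusted p = 0.202), Ndufc1 and Ndufb6 had the smallest p. After sleep 0 members passed by those tools, with a background of 0.0485%, and 5 had an unadjusted p under 0.05, against 10.1% of all genes. There Ndufab1 (log2 0.19, SE 0.07, adjusted p = 0.354), Ndufaf6 and Cox7c, a small complex IV subunit, had the smallest p. In both comparisons 82 of 86 members were positive, against 51.6% of all genes after deprivation and 53.5% after sleep. After sleep this rested on CnB1KO_S6 library 13, without which 60 were positive and the median log2 fold change was 0.0247, against 0.1039 with it.

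The members' CPM followed library depth, and CnB1KO libraries were on average shallower. Depth and genotype thus went together in part, and these data cannot fully separate them. For 1 unit more of log2 library total, the log2 count of a member rose by a median of 0.69, against 1.14 over all genes. These slopes were fitted over all 19 libraries without a term for group, so group differences enter them. Genes of other abundant complexes also had slopes below that of all genes. The medians were 0.59 for 90 genes matched as ribosomal protein genes and 0.85 for 36 proteasome genes. The range over members was 0.27 for Cox6b2 to 1.58 for Cox4i2, and without library 13 the medians were 0.64 for the members and 1.13 for all genes. Members also had more counts per kilobase of exon, 177 at the median against 61.2, and a shorter exon length, 1560 bases against 4531. Their median log2 CPM ranged from 5.31 to 5.52 in CnB1KO_SD6, 5.26 to 5.64 in CnB1KO_S6, 5.24 to 5.42 in WT_SD6 and 5.31 to 5.38 in WT_S6. The shallowest library had the highest value of all 19, and the deepest, WT_SD6 library 10, the lowest.

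**Figure D4:**
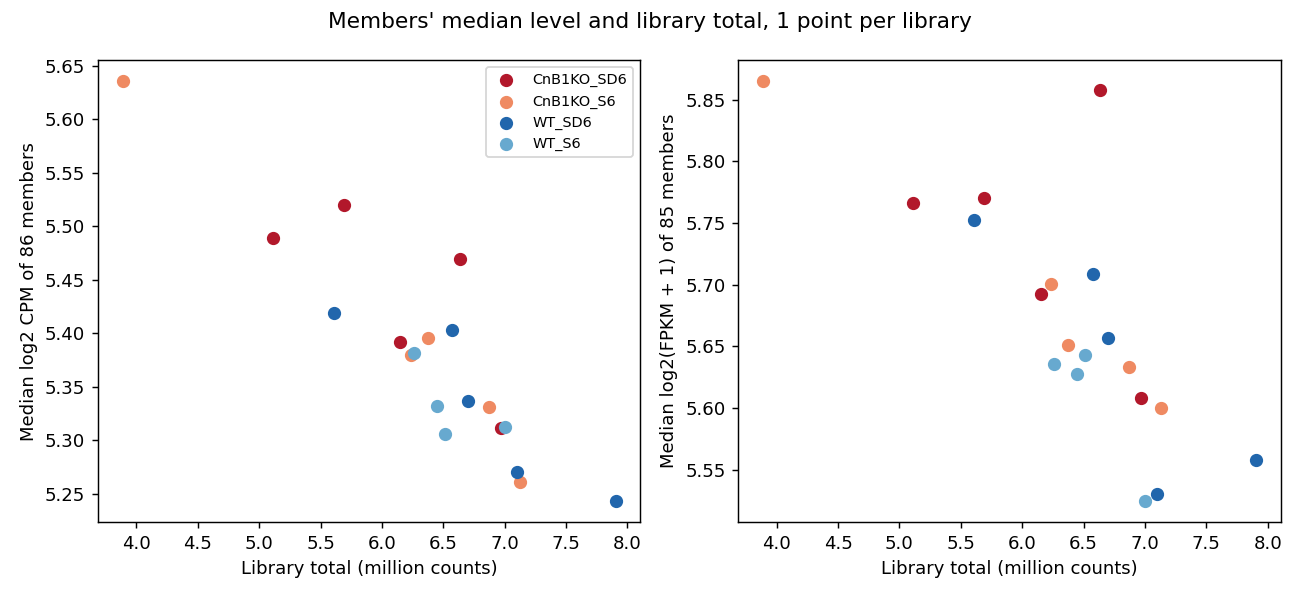
Median log2 CPM of the 86 members (left) and median log2(FPKM + 1) of 85 members (right) against the library total, with 1 point per library coloured by group. The level is highest, 5.64 log2 CPM, in the shallowest library with 3887298 counts and lowest, 5.24, in the deepest with 7903253 counts.

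With the log2 library total as a covariate the median log2 fold change for CnB1KO against WT, averaged over sleep states, was 0.04, against 0.10 without it. Then 72 of 86 members were positive, 17 (19.8%) had an unadjusted p under 0.05, against a background of 23.6%, and 0 passed, against a background of 3.95%. By class the median was 0.06 in complex IV, 0.04 in accessory subunits of complex I, 0.05 in assembly factors, 0.03 in complex III, 0.02 in the complex I core and 0.01 in complex V. Ndufaf6 had 0.26 with the covariate (adjusted p = 0.0553 by edgeR) and 0.25 without it, while Cox4i1 had 0.03 with the covariate and 0.14 without it. With the oligodendrocyte score as covariate the median was 0.01. Of the 11 oligodendrocyte markers 2 passed as higher in CnB1KO (Mag and Ermn). Of 8 general neuron markers 0 passed, and their median log2 fold change was 0.10, or -0.004 with the library total as covariate. Of 8 noradrenergic markers 0 passed and 8 were positive, with a median of 0.15. Of 7 microglia markers 1 passed as higher (C1qa), with a median of 0.07.

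Markers of cerebellar granule cells, a neighbouring population, had the largest difference of the marker lists, with 0 of 7 positive, 0 passing and a median log2 fold change of -0.87. Their mean log2 CPM ran from 2.99 to 7.41 in CnB1KO_SD6, against 3.87 to 7.93 in WT_SD6. It ran from 4.06 to 7.22 in CnB1KO_S6, against 5.60 to 7.60 in WT_S6. The groups overlapped, and Gabra6 alone of the 7 was at 0 in at least 1 library. With this score as a covariate the members' median for CnB1KO against WT was 0.08, with 82 of 86 positive.

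**Figure D5:**
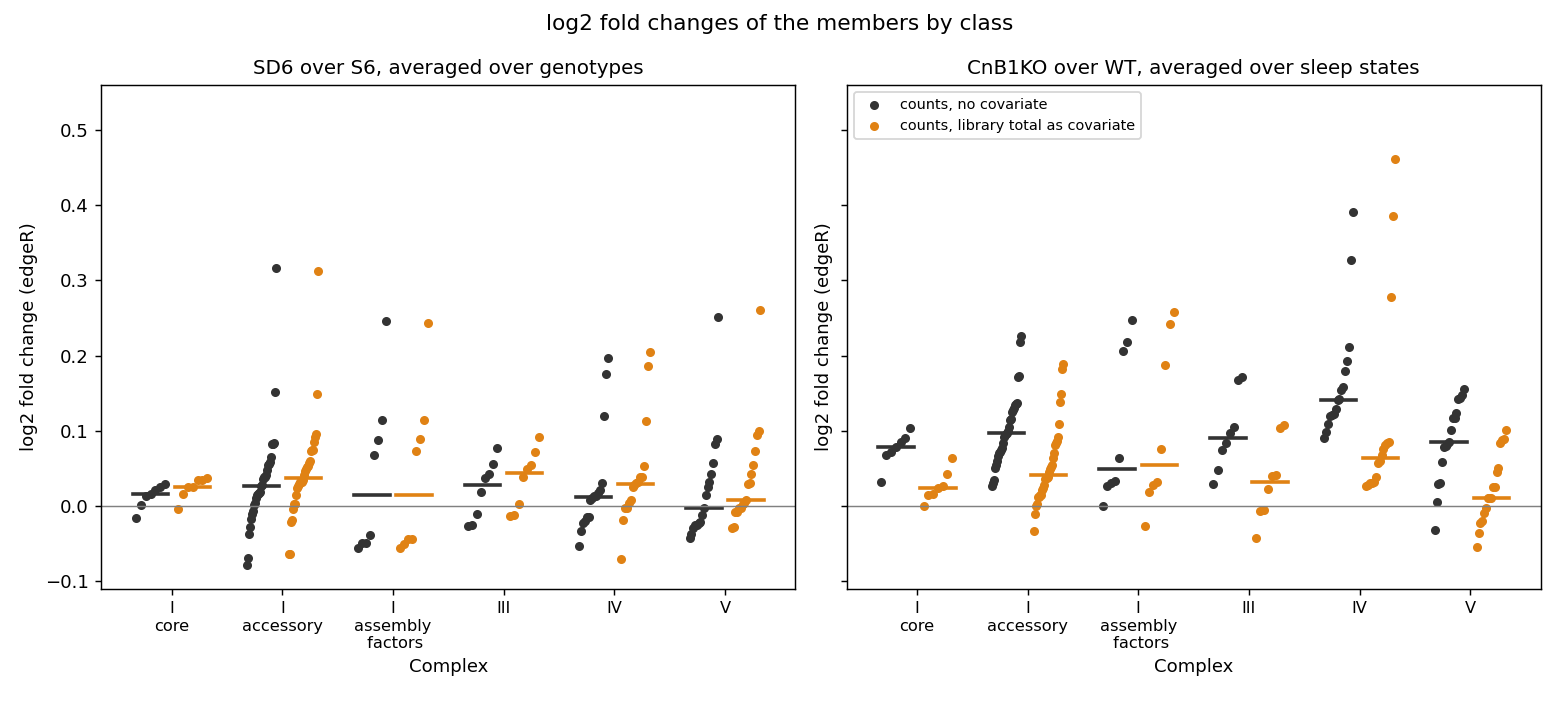
log2 fold changes (edgeR) of the 86 members by class, for deprivation averaged over genotypes (left) and CnB1KO against WT averaged over sleep states (right), without (black) and with (orange) the log2 library total as covariate. Points are genes and bars class medians. Left, Ndufb2, Atp5g1 and Ndufaf4 stand at 0.25 to 0.32. Right, the complex IV median is 0.14 without and 0.06 with the covariate.

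In deposited FPKM the genotype median was 0.11, with 81 of 85 members positive, against a median of -0.002 and 49.3% positive over all genes. At an unadjusted p under 0.05 there were 38 (44.7%), against 19.3% of all genes, and 0 passed, against a background of 0.973%. With the library total as a covariate of that fit the median was 0.05, and Uqcr11, a small complex III subunit, passed. The share of all genes that passed with this covariate is not given here, so the call has no background beside it.

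Members varied together between libraries of a group. The correlation of their deviations from group means over 19 libraries had a median of 0.689 over all pairs of members, against -0.0464 for a member with a gene outside the set. After removal of the library total it was 0.348, against 0.001. Such correlations are not given here for other gene sets, so they are not shown to be particular to the members. Pairs in the same class gave 0.695 and pairs from different classes 0.688, which is a description, since all pairs share the same libraries and their depth. The SD of log2 CPM within groups was 0.119 at the median, against 0.139 over all genes, and 0.0667 against 0.129 after removal of the library total. Ndufb2 had the smallest within-group SD of the members, 0.0739.

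Other genes of the pathway showed few calls. Of 4 complex II genes, 2 cytochrome c genes, 28 further assembly factors and 16 citric acid cycle genes, 0 passed in either averaged comparison. Their median log2 fold changes for CnB1KO against WT were 0.08, 0.07, 0.05 and 0.07 in that order, and 0.03, 0.03, 0.05 and 0.02 with the library total as covariate. Of 13 mitochondrially encoded subunits 7 had counts, and 0 of these passed. Their median log2 fold change was -0.07 for deprivation and 0.11 for CnB1KO against WT, and the second was -0.03 with the covariate.

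Of 14 regulators of mitochondrial genes 2 passed for CnB1KO against WT averaged over sleep states, beside the background of 3.09%, and neither of them passed in deposited FPKM. Ppargc1a, which encodes the coactivator PGC-1alpha, was higher (log2 0.17, SE 0.03, adjusted p = 0.0176 by edgeR). Gabpb1, a subunit of the ETS factor GABP, was lower (log2 -0.22, SE 0.06, adjusted p = 0.0397 by edgeR). In the same comparison the members' median was 0.10, with 85 of 86 positive. Ribosomal protein genes, matched by a symbol pattern that also takes in some Rps6k kinase genes, had a median of 0.08 with 80 of 90 positive and 1 passing as lower (Rps15a). After deprivation alone their median was 0.1039, against 0.1071 for the members. Proteasome genes had an averaged median of 0.06 with 31 of 36 positive. With the library total as covariate the medians were 0.04 for the members, 0.01 for ribosomal protein genes and 0.03 for proteasome genes.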

How the data were processed

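RNA sequencing libraries of locus coeruleus were analysed from the authors' deposited tables. These hold raw counts per gene (1 table) and FPKM (1 table per group, scaled to length and mapped total by the authors). The submitters' processing notes name build GRCm38, HTSeq 2.0.4, StringTie 2.2.1, Picard 2.18.29, FastQC 0.12.1, SAMtools 1.6 and Trim Galore 0.6.10. The aligner and annotation release were not given in the sources used here. Counts (3887298 to 7903253 per library) were tested in R 4.3.3 by edgeR 4.0.16 after TMM scaling (quasi-likelihood F test, 2-sided, 4 groups in 1 fit, 15 residual degrees of freedom, adjusted over 14443 genes). FPKM were tested with limma 3.58.1 on log2(FPKM + 1), which understates changes of low genes, for genes with a mean of at least 1. DESeq2 1.42.0, voom, RLE scaling, covariates, a CPM filter and leaving out each library were alternatives. The scripts were tested on simulated data.

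Named genes were the members that passed, the 3 with the smallest p in each comparison of 2 groups, the 2 highest and 1 lowest of each class by FPKM, and the isoform sets; 1 such gene is not reported here. Others, such as Atp5l, Uqcr11 and those for Ndufb2's overlap, were named after their values were seen. The members and lists were chosen with earlier results of these data known. Gene positions are from GENCODE M21, which matched 82 members to 1 gene. Of the members 29 share exon bases with another gene. The columns of the tables carry library numbers, not the labels' replicate numbers. No batch is given, and Atp5o was left out of FPKM because it has several lines.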

Additional observations from a re-analysis of the deposited data

Results flagged for a closer look

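In 3 of 80 groups tested a library stood apart from the others of its group by the gap to its nearest neighbour relative to the group's range. Chance alone flags about 1 in 20 groups, so these are no more than chance gives. Ndufc1 was at 22.46 CPM in WT_S6 library 3, against 26.39 to 26.69 CPM in the others of that group. The members' median log2(FPKM + 1) was 5.524 in WT_S6 library 3, against 5.628 to 5.643 in the others. Ndufab1 was at 40.37 FPKM in CnB1KO_SD6 library 18, against 36.37 to 37.46 FPKM in the others.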

How the results depend on the processing

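No paired analysis was possible because the columns of the tables do not carry the labels' replicate numbers. For deprivation in WT, 1 member passed; 2 passed with DESeq2, with the library total as covariate (also without the shallowest library) and with the noradrenergic score, 3 with the cerebellar granule score, and 0 in FPKM (pseudocount 1 or 0.1, no filter, or with the library total). The median was 0.1544 with the oligodendrocyte score, which did not overlap between WT_SD6 and WT_S6. For deprivation in CnB1KO, 1 passed; 2 passed with the library total or the oligodendrocyte score as covariate, and 0 in any FPKM setting, with the library total but without the shallowest library, or with the 2 groups alone. Averaged over genotypes, 3 passed; 0 passed in FPKM and 1 (Ndufb2) in FPKM with the library total, and the median was 0.1184 with the oligodendrocyte score. For CnB1KO against WT averaged over sleep states, 0 passed; 1 passed with the noradrenergic score (Ndufab1) and 1 in FPKM with the library total (Uqcr11). After deprivation the median for CnB1KO against WT was -0.0184 with the oligodendrocyte score. The share of all genes that passed is not given for each of these settings, and the cause of these shifts was not tested.

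Leaving out each library gave 1 to 2 members for deprivation in WT (2 without CnB1KO_S6 library 13 or CnB1KO_SD6 library 18), 0 to 2 in CnB1KO (0 without CnB1KO_S6 library 11 or CnB1KO_SD6 library 18, 2 without CnB1KO_S6 library 13) and 3 to 4 averaged over genotypes. The members' median for CnB1KO against WT ran from 0.0578 to 0.1197 averaged, 0.0247 to 0.1343 after sleep and 0.0755 to 0.1356 after deprivation, the first 2 lowest without CnB1KO_S6 library 13, and that of the interaction from -0.0309 to 0.0769. Leaving out a library gave 0 to 4 members for the averaged genotype comparison (4 without CnB1KO_SD6 library 16, 2 without CnB1KO_S6 library 14 or WT_SD6 library 8, 1 without WT_SD6 library 6), 0 to 1 after deprivation (1, Ndufc1, without CnB1KO_SD6 library 16) and 0 after sleep and for the interaction. Over all genes the counts that passed moved more: 447 for the averaged genotype comparison, with 76 to 1088 when a library was left out and 11 (oligodendrocyte score) to 694 (DESeq2) otherwise; 678 for averaged deprivation, with 470 to 673 and 289 (FPKM without a filter) to 1161 (cerebellar granule score). For deprivation in WT 165 passed, with 78 to 176 and 35 (2 groups alone) to 401 (cerebellar granule score), and in CnB1KO 100, with 54 to 134 and 50 (FPKM without a filter) to 160 (DESeq2). For CnB1KO against WT 19 passed after deprivation, with 7 to 220 and 4 (2 groups alone) to 95 (DESeq2), and 7 after sleep, with 3 to 8 and 3 (2 groups alone) to 19 (library total).

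Atp5g1 for deprivation in WT was -0.0058, -0.0059 and -0.0058 in the 3 FPKM fits without a covariate, and Ndufab1 for CnB1KO against WT after sleep was -0.0148, -0.0151 and -0.0148, and -0.0121 with the library total, against 0.27 and 0.19 in the count fit. Depth limits the members with the lowest counts, such as Cox4i2. The alternatives with the library total for FPKM and without the shallowest library were chosen after seeing the data.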
